A study of Porolithon cf. onkodes and Sporolithon durum with 38 samples.

Results

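For the crustose coralline alga *S. durum*, 4 of the transcripts that served as RT-qPCR targets were followed across treatments in the CEL-Seq2 count table. They were GAPDH (DN199936_c0_g1_i2), used as the reference gene, and 3 genes of interest, named after BLASTX matches as an acetyl-CoA gene (DN199578_c0_g1_i2), a serine/threonine protein phosphatase (DN198856_c0_g2_i4) and HSP33 (DN197763_c0_g2_i5). These 4 members were found by their Trinity names among 185036 transcripts of *S. durum*, and the 2 species of the series together had 303162 transcripts. Trinity is the assembler that built the transcriptome without a genome, and its names give a gene (c and g numbers) and an isoform (i number). The table does not annotate its transcripts, so the labelled tissue, the pigmented surface layer, could not be checked against markers and no pathway list could be set.

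Field-collected fragments of *S. durum* had been kept for 3 months in flow-through aquaria. The T + pH fragments were held at 29.5 °C and pH 7.7 with a pCO2 of 1000 µatm (5 libraries), the pH fragments at 27.2 °C, pH 7.7 and 1000 µatm (5 libraries), the T fragments at 29.5 °C, pH 8.0 and 450 µatm (5 libraries), and the control fragments at 27.2 °C, pH 8.0 and 450 µatm (4 libraries). CEL-Seq2 tags the 3′ end of each RNA molecule with a unique molecular identifier, and molecules can share an identifier. The counts used here were not corrected for this, so a count can fall short of the tagged molecules, most where counts are high. In such bulk samples, fewer cells of a type and less RNA per cell cannot be told apart.

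GAPDH, glyceraldehyde 3-phosphate dehydrogenase, acts in glycolysis, and plastid forms act in the Calvin cycle. It is a common RT-qPCR reference because many tissues keep it at a steady level. Acetyl-CoA is the 2-carbon donor of fatty acid synthesis and of the citric acid cycle. The name given to DN199578_c0_g1_i2 does not say which enzyme of acetyl-CoA it encodes. Serine/threonine protein phosphatases remove phosphate groups that kinases have added to proteins. HSP33 is known from *Escherichia coli* as a chaperone that is switched on by oxidation and holds unfolding proteins. The genes of interest were picked by the study as *S. durum* counterparts of transcripts that responded in *P. onkodes*, the other species of the series. GAPDH was taken from references used in other red algae, and the study reported low variation for it in normalised reads of these same libraries. An analysis with geNorm then named it the most suitable reference. Its variation in the values used here is given below.

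The primers that defined the RT-qPCR assays are shown because they tie each name to 1 assay. They are 20 bases each, written 5′ to 3′, with the 5 bases at the 3′ end, where the polymerase extends, in capitals.
GAPDH forward: acaactcgcaggaaaGCTCA
GAPDH reverse: tgctttcatcggtgcCCTTA
acetyl-CoA gene forward: agacggtgcagttggAGATC
acetyl-CoA gene reverse: atatccccaccttccGATGC
serine/threonine phosphatase forward: atgcaggcccttgagTTTGT
serine/threonine phosphatase reverse: tgataccgttgctctGCCAG
HSP33 forward: catcggtccaggtcaCTACG
HSP33 reverse: atcgcggcatagaacTGAGG
The G and C bases made up between 50% and 60% of each primer. The transcript sequences were not used here, so the position of the primers within a transcript, and whether they would also amplify the other isoforms described below, was not analysed.

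A pair of features of the libraries touch every value below. The profiles of 3 libraries, SD1 and SD2 of T and SD5 of pH, stood apart, with a median Spearman correlation across transcripts of 0.157 with the other 16 libraries, against 0.870 among those 16 and 0.854 among the 3. Results are therefore given without and with them. The total count of 18 of the 19 columns also equalled the total listed for a different sample in the table of sequencing statistics, and for 12 columns that sample belonged to another treatment. Treatments were taken from the sample labels, and every direction below depends on them. Total counts ranged between 262942 (SD18 of T) and 21542260 (SD9 of pH), and all pairs of libraries within a treatment differed by more than sampling noise. The labels state that fragments were biological replicates.

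GAPDH, in CPM (counts scaled by library total and by TMM factors over the 19 libraries), was at 78.8 (SD6), 160.3 (SD7), 61.7 (SD12), 124.8 (SD15) and 44.3 (SD19) in T + pH and at 70.1 (SD3), 43.2 (SD5), 135.8 (SD9), 48.1 (SD11) and 62.2 (SD14) in pH. In T it was at 51.3 (SD1), 35.0 (SD2), 159.9 (SD8), 274.4 (SD18) and 47.5 (SD20), against 117.1 (SD4), 91.6 (SD10), 106.7 (SD13) and 90.8 (SD17) in the control. The control libraries lay close together, the libraries of each other treatment reached both above and below them, and the groups overlapped. Without SD1, SD2 and SD5, GAPDH averaged 94.0 ± 47.7 CPM in T + pH (SD, n = 5), 79.1 ± 38.9 in pH (n = 4), 161 ± 113 in T (n = 3) and 102 ± 12.7 in the control (n = 4). The high mean of T rested on SD18, the shallowest library, where 62 counts gave an exact Poisson 95% interval between 210 and 352 CPM, which covers counting error only. Without SD18 the log2 fold change of T against the control was 0.027, where it was 0.58 with it.

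The acetyl-CoA gene was at 40.8 (SD6), 24.6 (SD7), 38.4 (SD12), 8.8 (SD15) and 13.9 (SD19) CPM in T + pH and at 23.2 (SD3), 8.5 (SD5), 12.2 (SD9), 15.04 (SD11) and 39.4 (SD14) in pH. In T it was at 12.1 (SD1), 6.2 (SD2), 25.9 (SD8), 17.7 (SD18) and 14.98 (SD20), against 46.8 (SD4), 8.6 (SD10), 44.5 (SD13) and 6.9 (SD17) in the control. The control libraries fell into a high pair (SD4 and SD13) and a low pair (SD10 and SD17) whose span held every library of the other treatments but SD2. Means without SD1, SD2 and SD5 were 25.3 ± 14.2 CPM in T + pH (SD, n = 5), 22.4 ± 12.2 in pH (n = 4), 19.5 ± 5.7 in T (n = 3) and 26.7 ± 21.9 in the control (n = 4).

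The serine/threonine phosphatase was at 49.1 (SD6), 45.5 (SD7), 25.4 (SD12), 65.8 (SD15) and 25.3 (SD19) CPM in T + pH and at 42.7 (SD3), 1.7 (SD5), 41.2 (SD9), 27.1 (SD11) and 32.6 (SD14) in pH. In T it was at 5.5 (SD1), 1.7 (SD2), 39.9 (SD8), 48.7 (SD18) and 58.1 (SD20), against 36.8 (SD4), 43.1 (SD10), 27.1 (SD13) and 15.8 (SD17) in the control. SD1, SD2 and SD5 were below all other libraries, and the rest overlapped between treatments. Means without these 3 were 42.2 ± 17.2 CPM in T + pH (SD, n = 5), 35.9 ± 7.4 in pH (n = 4), 48.9 ± 9.1 in T (n = 3) and 30.7 ± 11.9 in the control (n = 4). With them, the mean was 29.1 ± 16.6 CPM in pH and 30.8 ± 25.7 in T (n = 5 each). Its lowest control library, SD17, weighed on the 16-library log2 fold changes, which without it were 0.25 in T + pH (0.46 with it), 0.019 in pH (0.24 with it) and 0.43 in T (0.65 with it).

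HSP33 was at 91.6 (SD6), 106.6 (SD7), 59.1 (SD12), 27.5 (SD15) and 122.7 (SD19) CPM in T + pH and at 82.3 (SD3), 14.4 (SD5), 64.0 (SD9), 74.2 (SD11) and 101.2 (SD14) in pH. In T it was at 71.8 (SD1), 27.7 (SD2), 30.8 (SD8), 26.6 (SD18) and 111.3 (SD20), against 73.6 (SD4), 52.8 (SD10), 84.5 (SD13) and 11.7 (SD17) in the control. The control value of SD17 was the lowest of all 19 libraries, and every treatment had libraries within the range of the control. Means without SD1, SD2 and SD5 were 81.5 ± 38.2 CPM in T + pH (SD, n = 5), 80.4 ± 15.7 in pH (n = 4), 56.2 ± 47.7 in T (n = 3) and 55.7 ± 32.1 in the control (n = 4). Without SD17 the log2 fold change of HSP33 was 0.24 in T + pH, where it was 0.57 with it, and 0.19 in pH, where it was 0.53.

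**Figure D1:**
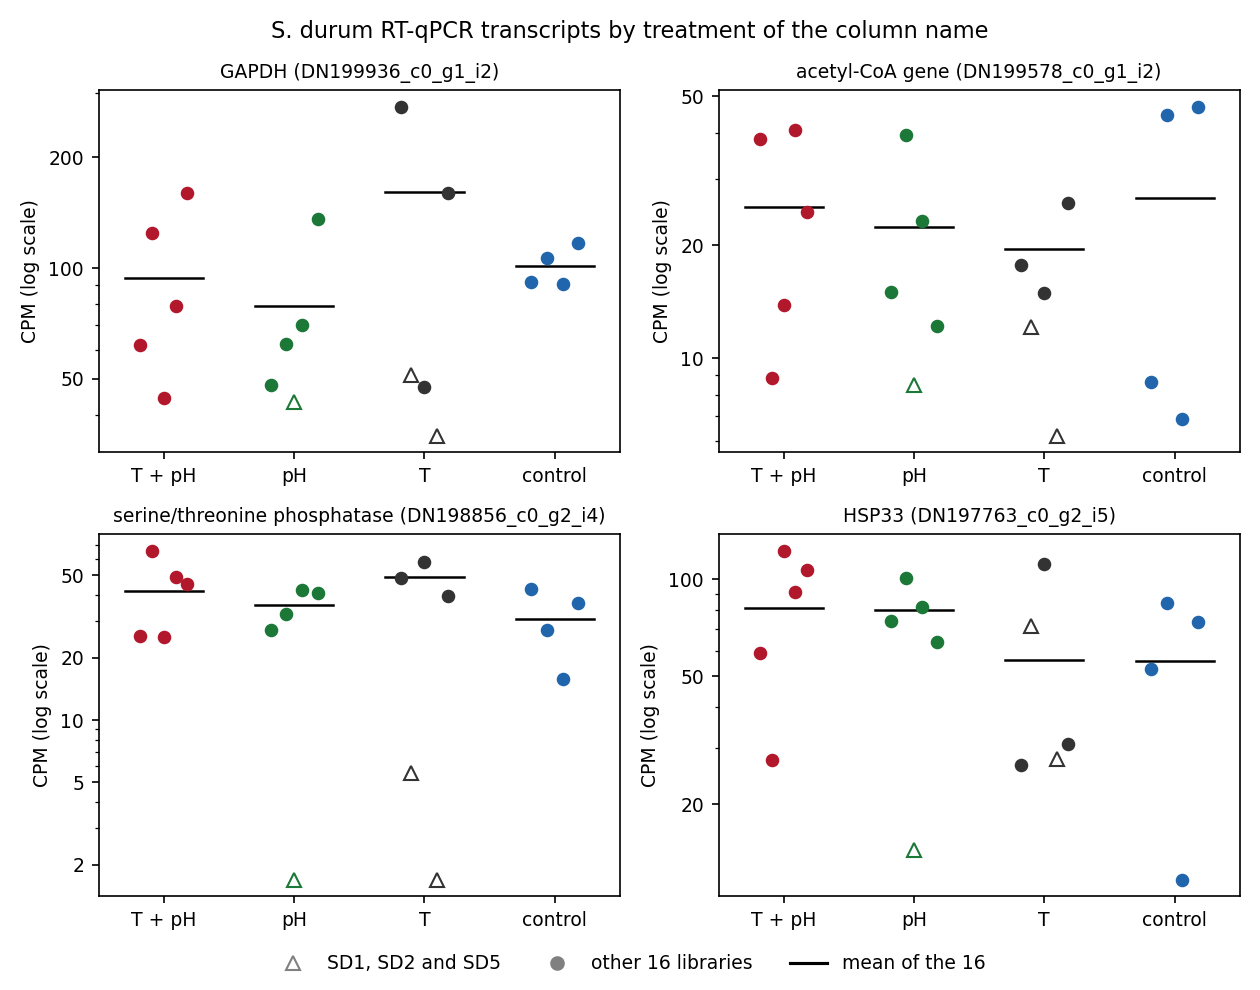
CPM (log scale) of the 4 transcripts in each *S. durum* library by treatment, with SD1, SD2 and SD5 as open triangles, the other 16 libraries as filled circles and the mean of those 16 as a line. The treatments overlap in every panel, and in the phosphatase panel the 3 triangles, between 1.7 and 5.5 CPM, lie below all circles.

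Whether warming, reduced pH or both changed these transcripts was tested with edgeR's quasi-likelihood F-test over all transcripts with at least 5 counts, Benjamini-Hochberg adjusted, and a transcript was called at an FDR under 0.05 where its log2 fold change also exceeded 0.3 in size. None of the 4 members was called in T + pH, pH or T against the control, in 16 or in 19 libraries, and the share called among all transcripts tested was 0% in each comparison. At an unadjusted p below 0.05, again 0 of 4 members passed in each comparison of this fit, where 3.26% (T + pH), 3.69% (pH) and 4.57% (T) of the 39230 transcripts tested passed in 16 libraries and 1.24%, 5.94% and 17.4% of 51953 passed in 19. DESeq2, run as an alternative, also called 0 of the 4 members, with a smallest FDR of 0.510. Of all transcripts it called 0.656% (T + pH), 2.45% (pH) and 7.34% (T) in 19 libraries and 0.0127%, 0.0255% and 0.0102% in 16. Under 3 alternatives a member did pass at an unadjusted p below 0.05, but not after adjustment. Summed over isoforms in 19 libraries, the phosphatase in T was at 1.16 ± 0.46 (SE, edgeR FDR 0.293), with a pair of isoforms of identical counts both added. A fit with that pair counted once was not run. With treatments by listed totals in 16 libraries, the acetyl-CoA gene in T was at -1.06 ± 0.50 (SE, edgeR FDR 0.748), and without SD20 of T, GAPDH in T was at 1.01 ± 0.48 (SE, edgeR FDR 1.0). CPM ranges of treatment and control overlapped for all 4 members in each comparison. Among all transcripts, ranges without overlap made up 0.596% (T + pH), 1.72% (pH) and 2.41% (T) in 16 libraries and 0.466%, 0.474% and 0.891% in 19.

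In the 16 libraries, T + pH against the control gave log2 fold changes of -0.10 ± 0.43 for GAPDH, -0.052 ± 0.54 for the acetyl-CoA gene, 0.46 ± 0.36 for the phosphatase and 0.57 ± 0.50 for HSP33 (SE, edgeR FDR 1.0 for each). For pH against the control the values were -0.36 ± 0.45, -0.26 ± 0.57, 0.24 ± 0.38 and 0.53 ± 0.52 in the same order of genes (FDR 1.0 for each). For T against the control they were 0.58 ± 0.49, -0.47 ± 0.64, 0.65 ± 0.41 and 0.045 ± 0.57 (FDR 1.0 for each). The 3 comparisons share the control libraries. No estimate was as large as 2 of its standard errors, and these errors leave room for changes in either direction. The median over all transcripts tested was 0 for T + pH, 0.040 for pH and 0.066 for T.

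With all 19 libraries the standard errors of the phosphatase were between 0.82 and 0.83, larger than any of its fold changes. Its log2 fold change was then 0.46 in T + pH, -0.070 in pH and -0.0076 in T, so that the pH and T values changed sign against those in 16 libraries. For the acetyl-CoA gene in T the value was -0.80 ± 0.69 (SE, FDR 0.508, the smallest of any member in a comparison with the control in 19 libraries), and GAPDH in T was at 0.15 ± 0.61 and HSP33 in T + pH at 0.55 ± 0.66. The median of all transcripts in this fit was 0.54 in T and 0.36 in pH, where SD1, SD2 and SD5 belong, and 0 in T + pH.

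**Figure D2:**
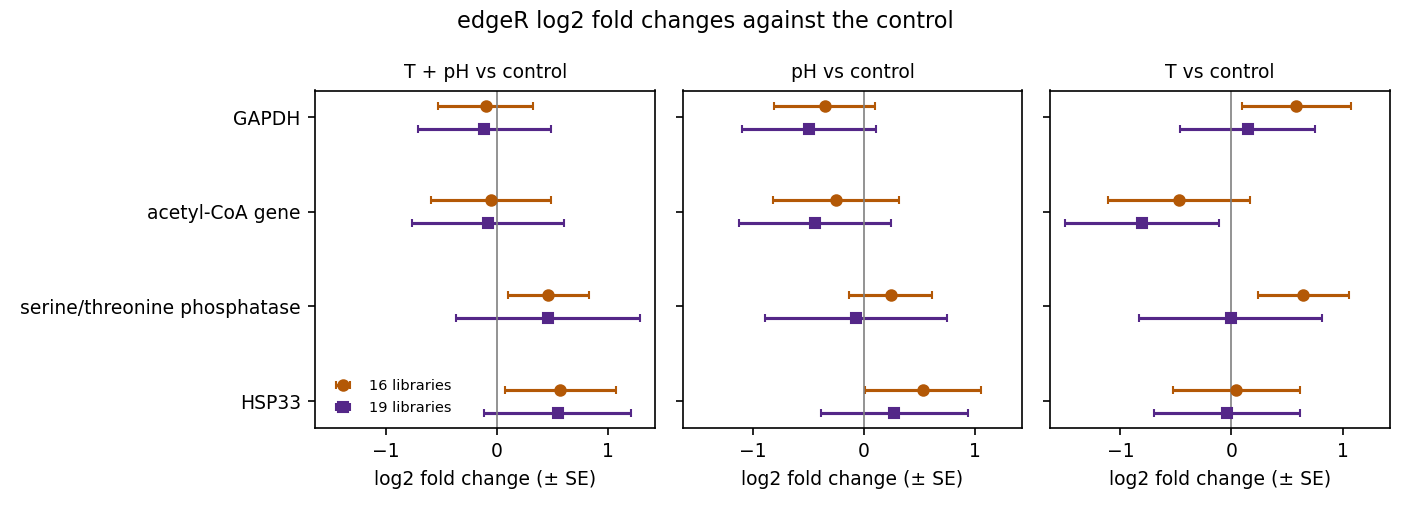
edgeR log2 fold changes of the 4 transcripts against the control, with bars of 1 SE, for 16 libraries (circles) and 19 libraries (squares). The estimates lie between -0.80 and 0.65, and the bars of the phosphatase are widest with 19 libraries.

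Whether the effect of temperature differed between the pH levels was tested as the interaction in the same model. In the 16 libraries it was -0.33 ± 0.65 for GAPDH, 0.67 ± 0.84 for the acetyl-CoA gene, -0.42 ± 0.54 for the phosphatase and -0.00029 ± 0.68 for HSP33 (log2, SE, edgeR FDR 1.0 for each). None of the 4 passed in 16 or 19 libraries, where the smallest FDR was 0.501, nor in the joint test across the 4 treatments (smallest FDR 0.960). Called transcripts made up 0% of all tested in each of these tests. In the 19 libraries these counts rested on single libraries, since leaving out SD5 of pH gave 6536 calls of 50379 in the joint test and leaving out SD9 of pH gave 2186 of 50358 in the interaction. In the 16, leaving out SD20 of T gave 43 calls in the joint test. No member was among the calls. At an unadjusted p below 0.05, 0 of 4 members passed the interaction, where 4.2% of all transcripts passed in 16 libraries and 30.6% in 19, and 0 of 4 passed the joint test, where 4.89% and 17.5% passed. In simulated counts with 200 transcripts, each with a mean of at least 10 CPM, changed by 4-fold in T + pH, this fit recovered 52.5% of them in 16 libraries and 0% in 19. All simulated libraries were drawn from 1 mean profile with the spread estimated over the libraries used. With 19, simulated T + pH and control libraries thus carried spread from SD1, SD2 and SD5, which belong to T and pH. The recovery may therefore differ from that in the real counts.

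The level of a gene of interest relative to GAPDH within a library, the counterpart of an RT-qPCR value, is not scaled by the total of the library. Without correction for shared identifiers it can still vary with depth, most where counts are high, as for GAPDH in SD9 (3633 counts). The log2 ratio of counts of the phosphatase to GAPDH (0.5 added to each count) in the 16 libraries was -0.68 (SD6), -1.81 (SD7), -1.27 (SD12), -0.92 (SD15) and -0.81 (SD19) in T + pH and -0.71 (SD3), -1.72 (SD9), -0.82 (SD11) and -0.93 (SD14) in pH. It was -1.999 (SD8), -2.44 (SD18) and 0.29 (SD20) in T, against -1.66 (SD4), -1.08 (SD10), -1.97 (SD13) and -2.50 (SD17) in the control. Of the T + pH and pH libraries, SD7, SD9 and SD12 lay within the range of the control and the others above it, and SD20 was the only library of the 16 with more phosphatase than GAPDH counts. The mean difference from the control was 0.70 in T + pH (two-sided exact permutation p = 0.0952), 0.76 in pH (exact p = 0.0857) and 0.42 in T (exact p = 0.686).

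HSP33 relative to GAPDH was at 0.22 (SD6), -0.59 (SD7), -0.062 (SD12), -2.16 (SD15) and 1.46 (SD19) in T + pH and at 0.23 (SD3), -1.08 (SD9), 0.62 (SD11) and 0.70 (SD14) in pH. It was at -2.37 (SD8), -3.27 (SD18) and 1.23 (SD20) in T, against -0.67 (SD4), -0.79 (SD10), -0.34 (SD13) and -2.92 (SD17) in the control. All 4 control libraries were below 0, and each other treatment had libraries on both sides. The mean difference was 0.95 in T + pH (exact p = 0.270), 1.29 in pH (exact p = 0.114) and -0.29 in T (exact p = 0.743). Without SD17 it was 0.37 in T + pH and 0.71 in pH.

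For the acetyl-CoA gene the log2 ratio to GAPDH differed from the control by 0.44 in T + pH (exact p = 0.571), 0.55 in pH (exact p = 0.629) and -0.30 in T (exact p = 0.800). Its ratios ranged between -3.80 and -0.66 over the 16 libraries, and SD10 and SD17 of the control were again far below SD4 and SD13. None of the 9 tests passed 0.05 before any adjustment. The smallest p that these group sizes allow is 0.0159 in T + pH, 0.0286 in pH and 0.0571 in T, so that the T comparison could not have passed. With SD1, SD2 and SD5 the phosphatase difference was -0.49 in T (exact p = 0.587) and 0.091 in pH (exact p = 0.873).

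**Figure D3:**
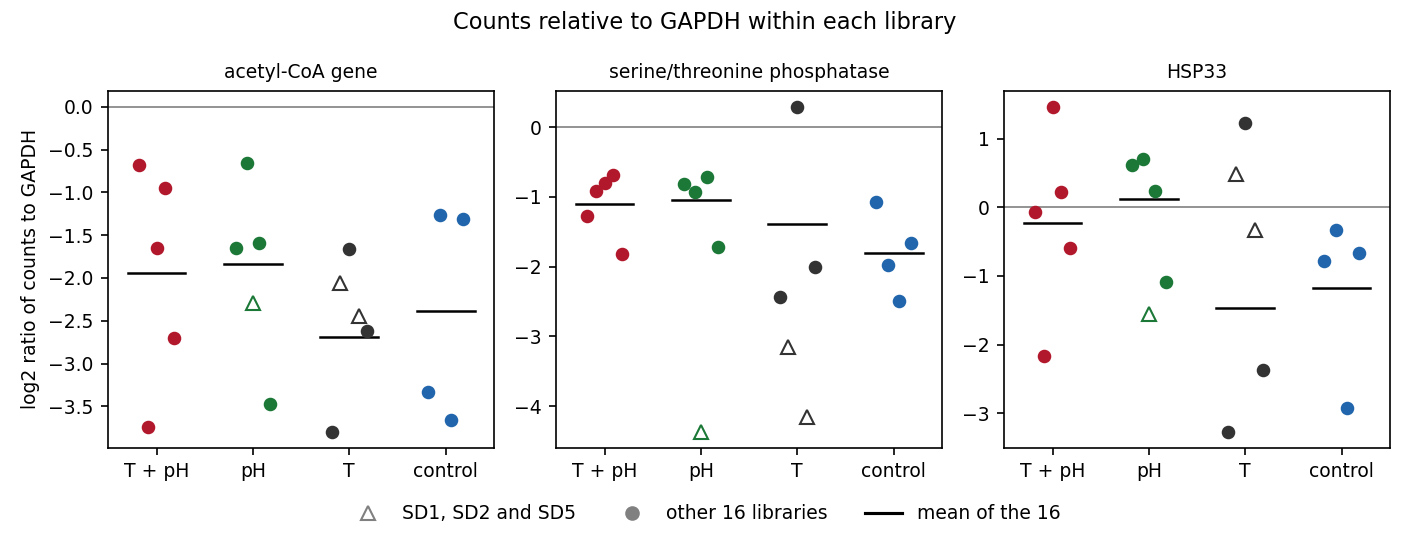
Log2 ratio of the counts of each gene of interest to those of GAPDH in the same library, by treatment, with SD1, SD2 and SD5 as open triangles, the other 16 libraries as filled circles and the mean of those 16 as a line. The phosphatase panel has T + pH and pH means of -1.10 and -1.04 and a control mean of -1.80, with overlapping libraries, and its 3 triangles lie below the circles.

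GAPDH served as the denominator of these ratios, and its own variation is given as a description. Its coefficient of variation (CV) of CPM was 56.5% over the 16 libraries and 61.9% over the 19, where counting error alone would give a CV of 10.5% over the 16. Of the 2963 transcripts within a factor of 2 of its mean CPM in the 16 libraries, 80.8% had a lower CV. The CV of GAPDH and this share include SD18, the shallowest library, whose 62 counts gave the highest value, 274.4 CPM. They were not computed without SD18. The CV of the acetyl-CoA gene was 58.0% over the 16 libraries, that of HSP33 47.7% and that of the phosphatase 33.7%, and 81.4%, 72.4% and 37.8% of the transcripts at a like level had a lower one. The phosphatase thus varied least of the 4 members among the 16 libraries, and over the 19 libraries its CV was 54.3% and its highest value 38.9 times its lowest.

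Across the 16 libraries the members did not move as 1 group. Pearson's r of log2 CPM was -0.49 between GAPDH and HSP33 (Spearman's rho -0.49), 0.51 between the acetyl-CoA gene and HSP33 (rho 0.33), 0.30 between GAPDH and the phosphatase (rho 0.34), and between -0.015 and 0.20 for the other pairs. These are descriptions, since the libraries share scaling factors and treatments. The transcripts of another DN number with the pattern most like a member over these 16 libraries, among 12734 to 12737 candidates with a mean of at least 10 CPM, were DN199588_c6_g1_i3 (r = 0.86) and DN195372_c0_g1_i3 (0.83) for GAPDH and DN196349_c0_g1_i1 (0.85) and DN196302_c1_g6_i2 (0.84) for the acetyl-CoA gene. For the phosphatase they were DN199521_c2_g1_i3 and DN199521_c2_g1_i1 (0.82 each), a pair of isoforms with nearly the same counts. For HSP33 they were DN198924_c0_g1_i2 (0.93) and DN194349_c2_g2_i4 (0.91). Spearman's rho was 0.67 for each phosphatase match, 0.78 for DN194349_c2_g2_i4 and 0.82 to 0.91 for the others. Each was picked as the highest of many candidates, so its r is no test. None of these transcripts is annotated here.

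The mean of each RT-qPCR transcript was lower in the 3 libraries that stood apart than in the other 16, but only the phosphatase was lower in all 3 than in every one of the 16. GAPDH averaged 43.2 ± 8.2 CPM in the 3 and 105 ± 59.1 in the 16 (SD), a ratio of 0.413. The ratio was 0.375 for the acetyl-CoA gene (8.94 ± 3.0 and 23.9 ± 13.8 CPM), 0.542 for HSP33 (37.9 ± 30.0 and 70.0 ± 33.4 CPM) and 0.0761 for the phosphatase (2.97 ± 2.2 and 39.0 ± 13.2 CPM). The highest of the 3 libraries, SD1, was above 7 of the 16 for HSP33 and above 3 of the 16 for GAPDH and for the acetyl-CoA gene. The phosphatase rested on 10, 3 and 2 counts in SD1, SD2 and SD5. These libraries were set apart for their profiles over all transcripts, so no test was made. The share of all transcripts whose ranges in the 3 and the 16 were separate was not counted. The separation is therefore not read as particular to the phosphatase.

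The other isoforms of the same Trinity genes had a different pattern. Of the acetyl-CoA gene, isoform DN199578_c0_g1_i5 was at 24.6 to 33.3 CPM in SD1, SD2 and SD5, where the other 16 libraries had 0 to 3.46 CPM. The RT-qPCR isoform DN199578_c0_g1_i2 took 28.6% (SD1), 15.7% (SD2) and 25.6% (SD5) of the counts of both isoforms, with exact binomial 95% intervals of 18.8% to 40.0%, 8.11% to 26.4% and 13.04% to 42.1%, and 90.9% to 100% in the other 16 libraries (median 96.9%). The 2 ranges do not overlap, but how many other Trinity genes had separate ranges was not counted.

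The phosphatase gene had a like shift of counts between Trinity isoforms, with lower shares of the RT-qPCR isoform in SD1, SD2 and SD5. Whether the Trinity isoforms come from a single gene was not analysed. DN198856_c0_g2_i1 was at 40.7 to 51.9 CPM in SD1, SD2 and SD5, and at 0 to 4.67 CPM in the other 16. Its neighbour DN198856_c0_g2_i3 had the same count in every library, 336 in all, so the pair cannot be told apart by these counts. The pair was counted once in the shares and summed CPM given here, but both were added in the edgeR fit of summed isoforms. The RT-qPCR isoform DN198856_c0_g2_i4 made up 9.62% (SD1), 3.80% (SD2) and 4.0% (SD5) of the counts of i4 and i1 together, with intervals of 4.71% to 16.97%, 0.790% to 10.7% and 0.488% to 13.7%, and 89.5% to 100% in the other 16 libraries (median 95.1%). Of the transcripts with the same DN number in another Trinity gene, DN198856_c0_g1_i7 averaged 517 CPM in SD1, SD2 and SD5 and 61.3 in the other 16, DN198856_c0_g1_i5 averaged 376 and 71.1, and DN198856_c0_g1_i1 averaged 222 and 188.

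HSP33 had no such shift of counts. Its RT-qPCR isoform DN197763_c0_g2_i5 made up 95.6% (SD1), 100% (SD2) and 94.4% (SD5) of the counts of it and DN197763_c0_g2_i1, and 70.6% to 100% in the other 16 libraries (median 80.3%). Isoform DN197763_c0_g2_i1 was at 0 to 3.31 CPM in the 3 and 0 to 29.4 CPM in the 16, and across the 16 its level ran against that of GAPDH (r = -0.77, rho -0.78, a pair noticed after the values were seen). GAPDH had no other isoform in its Trinity gene. Of the 6 further transcripts with its DN number, 5 had no count and DN199936_c0_g6_i1 had 4 counts, all of them in SD1, SD2 and SD5.

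**Figure D4:**
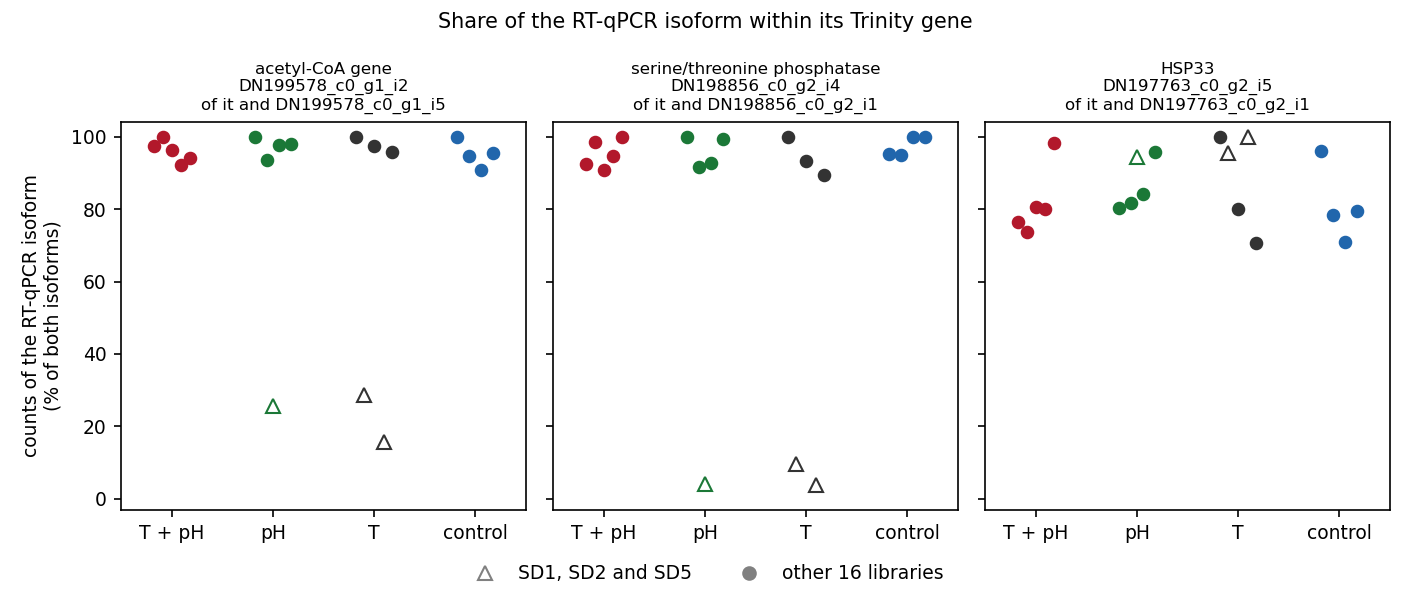
Counts of the RT-qPCR isoform as a percent of those of it and the other isoform of its Trinity gene, by library and treatment, with SD1, SD2 and SD5 as open triangles and the other 16 libraries as filled circles. The triangles lie at 15.7% to 28.6% for the acetyl-CoA gene and at 3.80% to 9.62% for the phosphatase, below circles at 89.5% or more. For HSP33 they lie at 94.4% to 100%, within the range of the circles (70.6% to 100%).

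Summed over the isoforms, the acetyl-CoA gene was at 38.4 ± 4.8 CPM in SD1, SD2 and SD5 and at 24.9 ± 14.8 in the other 16, a ratio of 1.54 where the RT-qPCR isoform alone gave 0.375. The summed phosphatase was at 48.1 ± 8.1 and 40.7 ± 13.6 CPM, a ratio of 1.18 where the isoform alone gave 0.0761. For HSP33 the sum gave 0.466 and for GAPDH, with its single isoform, 0.413. In TMM-scaled CPM, the lower phosphatase and acetyl-CoA values of these 3 libraries were thus found for the RT-qPCR isoform and not for the sum. The TMM factors were 0.71 (SD1), 0.75 (SD2) and 0.79 (SD5), which raises their CPM, and 0.86 (SD18) to 1.24 (SD9) in the other 16. The ratios of 1.54 and 1.18 depend on this scaling and would be lower by library totals alone, by which the sums were not compared. That the summed phosphatase was not lower in these 3 libraries therefore holds for TMM-scaled CPM only. What set these libraries apart was not tested.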

How the data were processed

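RNA of the pigmented layer of 19 *S. durum* fragments was sequenced by CEL-Seq2. The authors ran bcl2fastq and FastQC, trimmed reads to 60 bp, mapped them with bowtie2 (2.0.2) to a de novo Trinity transcriptome and counted them with the CEL-Seq pipeline. The deposited values are raw counts per transcript, without normalization or pooling. Before their tests the authors corrected counts for molecules that share an identifier, and that correction was not applied here. Total counts per library bound the precision: 62 counts of GAPDH in the shallowest library, and 4 of the acetyl-CoA gene.

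Transcripts with at least 5 counts in total were fitted in 1 model of 4 treatments with edgeR 4.0.16 in R 4.3.3 (TMM, robust quasi-likelihood F-test, Benjamini-Hochberg over all transcripts tested). The fit was tested on simulated data. Ratios to GAPDH were tested by exact permutation, two-sided (scipy 1.17.1). DESeq2 1.42.0, other filters and scalings, summed isoforms, treatments by listed totals and leaving out libraries were alternatives. Named transcripts were the 4 members, isoforms with at least 10% of the counts of their Trinity gene in any set of libraries, and the 2 transcripts most like each member (log2 CPM, prior count 2); transcripts of a member's DN number in another Trinity gene were named after their values were seen. The members, lists and tests were chosen with earlier results of these data known. RT-qPCR values were not used.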

Additional observations from a re-analysis of the deposited data

Results flagged for a closer look

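GAPDH in library SD9 of pH, at 135.8 CPM, lay far from the other 4 libraries of that treatment, which were between 43.2 and 70.1 CPM. Its gap to the nearest library was 0.7102 of the whole range of the 5 values, just above Dixon's critical value for 5 samples. SD9 was the deepest library of all. Of the 16 combinations of member and treatment examined this was the only one that passed, and chance alone flags about 1 in 20.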

How the results depend on the processing

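No member was called in any of the alternatives (smallest FDR against the control 0.293 over 29 fits of 19 libraries and 0.748 over 21 fits of 16, and 0.189 for the interaction), so that signs changed only among estimates that had not passed. The 0.293 and 0.189 were both of the phosphatase with isoforms summed in 19 libraries, where the identical isoforms i1 and i3 were both counted. By DESeq2, transcripts called were 341 in T + pH, 1272 in pH and 3811 in T in 19 libraries, and 5, 10 and 4 in 16, where edgeR called 0. Leaving out 1 library of the 16 gave 0 to 3 edgeR calls in T and up to 43 in the joint test (without SD20); of the 19, up to 6536 in the joint test (without SD5) and 2186 in the interaction (without SD9). Depth limited the shallowest library. In simulated counts drawn from 1 mean profile, the fit of 19 libraries recovered 0% of 4-fold changes. No paired analysis was possible because the treatments share no replicate number.

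Treatments by listed totals turned 8 log2 fold changes in 19 libraries: for T, GAPDH -0.33, phosphatase 0.051 and HSP33 0.78; for pH, GAPDH 0.36, acetyl-CoA gene 0.48 and phosphatase 0.49; for T + pH, GAPDH 0.21 and acetyl-CoA gene 0.36. In 16 libraries they gave, for T, GAPDH -0.41, phosphatase -0.052 and HSP33 0.67; for pH, GAPDH 0.035, acetyl-CoA gene 0.18 and phosphatase 0.037; for T + pH, GAPDH 0.14 and acetyl-CoA gene 0.25; and an HSP33 ratio to GAPDH of 0.74 in T. The acetyl-CoA gene in T kept its sign at -1.06 (FDR 0.748). Leaving out SD1, SD2 and SD5 turned the phosphatase to 0.65 in T and 0.24 in pH and HSP33 to 0.045 in T, and including them gave ratios to GAPDH in T of -0.49 (phosphatase) and 0.32 (HSP33). HSP33 in T was 0.30 by DESeq2, 0.031 with the stricter filter and 0.10 with only the compared treatments in 19 libraries, and -0.035 by DESeq2 and -0.018 without TMM in 16. GAPDH in T was -0.059 without TMM in 19. The phosphatase in pH was 0.38 with only the compared treatments. Isoforms summed in 19 libraries gave, in T, 0.039 for the acetyl-CoA gene and 1.16 for the phosphatase, and 0.59 for the phosphatase in pH, with the identical isoforms i1 and i3 both counted. The cause was not tested.

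Leaving out 1 library at a time changed a sign, in 19 libraries, for GAPDH in T + pH (-0.43 to 0.067) and T (-0.47 to 0.38), HSP33 in T (-0.51 to 0.28) and pH (-0.063 to 0.55), the acetyl-CoA gene in T + pH (-0.37 to 0.32) and the phosphatase in T (-0.47 to 0.30) and pH (-0.32 to 0.22). In 16 libraries it did so for GAPDH in T + pH (-0.40 to 0.074), HSP33 in T (-0.98 to 0.37) and the acetyl-CoA gene in T + pH (-0.37 to 0.34) and pH (-0.69 to 0.14), and for the ratios to GAPDH in T of HSP33 (-1.64 to 0.61), the acetyl-CoA gene (-0.82 to 0.25) and the phosphatase (-0.42 to 0.95). With no change of sign, the ranges in 16 libraries were, in T + pH, 0.24 to 0.85 for HSP33 and 0.25 to 0.67 for the phosphatase; in pH, -0.76 to -0.18 for GAPDH, 0.19 to 0.80 for HSP33 and 0.019 to 0.45 for the phosphatase; in T, 0.027 to 1.01 for GAPDH, -0.80 to -0.079 for the acetyl-CoA gene and 0.43 to 0.89 for the phosphatase. Ratios to GAPDH ranged, in T + pH, from 0.37 to 1.44 (HSP33), 0.022 to 0.89 (acetyl-CoA gene) and 0.47 to 0.94 (phosphatase), and in pH from 0.71 to 1.70, 0.13 to 1.09 and 0.52 to 0.996.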
